A study of Mus musculus with 6 samples.

Results

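The 26S proteasome, the protease that degrades ubiquitin-tagged proteins, was examined through its genes in HT22 cells, a mouse hippocampal neuronal line, with and without aluminum (Al) exposure. The genes were taken by symbol, as every row from Psma to Psmg with a number, which gave 50 of the 21878 gene symbols measured. RNA was sequenced in 6 input libraries of a MeRIP-seq experiment, that is, from fragmented RNA that had not been enriched for m6A. The 3 libraries of the control group came from cells without added Al, and the 3 libraries of the Al group from cells given aluminum maltolate at 120 µM and harvested 24 h later. Both groups are the same immortalized line, with no genetic change stated, and the study calls the 3 samples of a group biological replicates. Cells in plain DMEM and cells given maltol alone are both among the study's controls, and which of them was sequenced is not given in the sources used here. The labels mark these libraries with the letter M and do not spell it out. Reading M as the Al group is an inference from the series text, which names a control and an Al-treated group, and every fold change rests on it. The labels state a range of doses, so the dose of 120 µM rests on the study's methods.

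The proteasome consists of a barrel, the 20S core, and caps that open it. The outer rings of the core are built of alpha subunits, which gate the channel, and the inner rings of beta subunits, of which Psmb5, Psmb6 and Psmb7 cut proteins. The 19S cap has a base, with a ring of ATPases (Psmc genes) that unfold the substrate, and a lid, which removes ubiquitin. Interferon exchanges the cutting subunits for Psmb8, Psmb9 and Psmb10, which form the immunoproteasome. Psme genes encode other activators of the core, Psmf1 an inhibitor, Psmg1 to Psmg4 the chaperones that assemble the core, and Psmd5, Psmd9 and Psmd10 chaperones of the 19S base. In neurons, the proteasome is known for its part in clearing damaged and aggregation-prone proteins and in turning over synaptic proteins. Each ring holds its different subunits in equal numbers.

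In each Al library, the 20S core and the non-ATPase subunits of the 19S base held a larger share of the proteasome transcripts than in any control library, and the ATPases, the lid, the activators and the core's assembly chaperones a smaller one. Shares are of the summed FPKM (fragments scaled to transcript length and library size) of the 50 genes without Psmc3ip, which encodes no proteasome protein. The 7 constitutive beta subunits held 32.8% ± 0.671 in control and 39.0% ± 1.69 in Al libraries (SD, n = 3 each). Library by library, the controls had 32.0%, 33.1% and 33.2% and the Al group 40.0%, 39.9% and 37.0%, with no overlap. Such a share compares genes within a library and is the same under any scaling that multiplies a library by 1 factor, which quantile normalization does not. The shares were computed on FPKM as deposited. The alpha subunits held 14.3% ± 0.285 in control and 15.5% ± 0.443 in Al libraries. Within this share, mean FPKM as deposited went from 77.6 in control to 127 in Al libraries for Psma2, and from 55.3 to 21.8 for Psma1. Psma5 and Psma6 were also higher on deposited FPKM, and Psma3, Psma4 and Psma7 lower. The alpha share without Psma2 was not computed. The 3 base subunits Psmd1, Psmd2 and Psmd4 held 11.9% ± 0.365 in control and 13.6% ± 0.118 in Al libraries. The 6 ATPases held 12.4% ± 0.207 in control and 10.3% ± 0.899 in Al libraries, and the 8 lid subunits 17.8% ± 0.562 and 14.5% ± 0.785. The share of the activators was 5.68% ± 0.262 against 3.42% ± 0.0943. That of the core's assembly chaperones was 2.50% ± 0.147 against 1.24% ± 0.0561, and that of the immunoproteasome subunits 0.298% ± 0.0515 against 0.124% ± 0.0184. In each of these groups, the 3 control and the 3 Al libraries did not overlap. The shares of a library add up to a fixed total, so a higher share of the abundant beta subunits by itself lowers the others. With 3 libraries against 3, an exact permutation test cannot give a P under 0.1, and none was run on the shares.

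**Figure D1:**
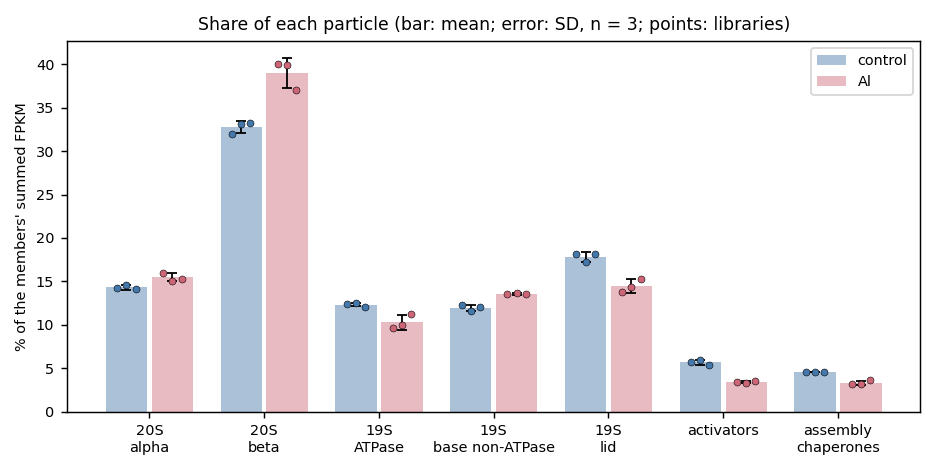
Share of each particle in the summed FPKM of the 50 genes without Psmc3ip, in percent, for control (blue) and Al (red) libraries. Bars are means of 3 libraries, error bars the SD and points the libraries. The beta subunits hold 37.0% to 40.0% in the Al libraries and 32.0% to 33.2% in the control libraries, and the activators 3.32% to 3.51% against 5.40% to 5.92%.

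The groups differed in depth and in the summed FPKM of all genes, and these facts touch every direction given below. The library totals behind the FPKM were 38059492 to 44556768 reads in the control and 21125631 to 26670978 in the Al group, so that depth and group cannot be told apart. The values were divided by size factors, which were 1.17 to 1.20 in the control and 0.799 to 0.929 in the Al libraries, and these scaled FPKM are used below unless FPKM as deposited is stated. Library Al 3 had the largest size factor of its group, and 13 of the 14 proteasome genes called higher in the Al group had their lowest Al value there. Of 7 neuron markers, Tubb3 and Syp passed the filter on low values, Snap25 and Nefm had no read in any library, and all 7 summed to 4.57 to 4.94 scaled FPKM in control and 3.28 to 5.02 in Al libraries, which overlap. The FPKM as deposited of these 7 summed to 5.40 to 5.78 and 2.66 to 4.17. The 3 fibroblast markers Col1a1, Col1a2 and Col3a1 summed to 2070 to 3340 scaled FPKM in control and 3590 to 5130 in Al libraries, without overlap, and to 2420 to 3940 and 2910 to 4100 FPKM as deposited. Col1a1 was called higher at 0.92, but was not called on deposited FPKM (0.43), on TPM (0.13) or after quantile normalization (−0.46). The part of cell identity in the results was not tested. In bulk RNA of this kind, fewer cells of a type and less RNA per cell cannot be told apart.

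Of the 50 genes, 47 had a mean FPKM of at least 0.1 and were tested with limma. The call required an unadjusted P under 0.05 together with a log2 fold change beyond ±0.58, the thresholds of the study. By this rule 14 proteasome genes (29.8%) were called higher in the Al group, against 26.2% of all 12889 genes tested, and 7 (14.9%) were called lower, against 24.4% of all genes. The other 26 were not called. The median log2 fold change of the 47 was 0.34, and that of all tested genes was 0.03. The Al libraries lay wholly above or below the control libraries for 33 of the 47 genes (70.2%), against 68.1% of all tested genes, 23 of them above and 10 below. At a Benjamini-Hochberg adjusted P under 0.05 over all tested genes and any fold change, 23 were higher and 9 lower. The share of all tested genes that passed this looser rule is not given here, so these counts have no background. The shares of higher genes and of genes without overlap lay near those of all genes, and the share of lower genes was below that of all genes.

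How many proteasome genes counted as higher or lower followed from the scaling. With FPKM as deposited, 1 gene was called higher and 16 lower, where 14.0% and 42.0% of all tested genes were called. With TPM, these counts were 0 and 22, against 9.31% and 53.1% of all genes. Quantile normalization gave 3 and 8, against 22.2% and 24.2% of all genes. Scaled on the proteasome genes themselves, which was added after the data had been seen, 7 were higher and 11 lower, against 17.6% and 35.4% of all genes. FPKM as deposited and TPM moved the median of all genes by −0.46 and −0.75 against the scaling used here. Relative to the median of all genes, the median proteasome gene lay 0.31 higher by size factors, 0.29 by FPKM as deposited and 0.28 by TPM, but at −0.14 with quantile normalization. Without Psmc3ip, the members' share of the summed FPKM of all genes was 0.806% ± 0.0209 in control and 0.654% ± 0.00507 in Al libraries. The 5 genes Psma1, Psmc6, Psmd11, Psmg2 and Psmg4 were called lower in each of 17 settings, which comprise the main one, other scalings, filters, pseudocounts and models and each library left out. They were also called lower when scaled on the proteasome genes. No gene was called higher in all 17, and Psma2 was called higher in 16 of them, all but TPM.

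**Figure D2:**
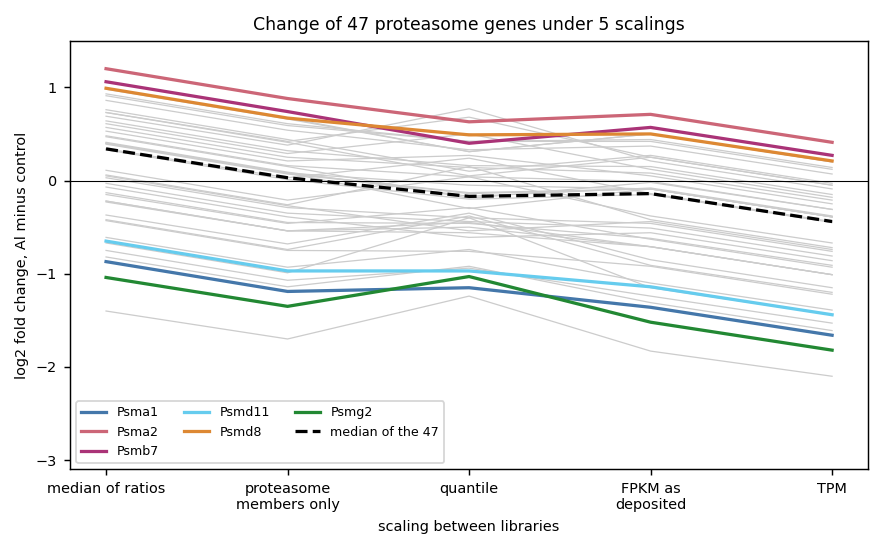
Log2 fold change (Al minus control) of the 47 tested proteasome genes, 1 line each, under 5 scalings between libraries; 6 genes are coloured and the dashed line is the median of the 47. Psma2 runs from 1.20 by median of ratios to 0.41 by TPM, Psma1 from −0.87 to −1.66, and the median crosses 0, from 0.34 to −0.44.

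The particles differed in how their subunits moved. The 7 constitutive beta subunits all had positive fold changes, from 0.33 for Psmb5 to 1.06 for Psmb7, with a median of 0.76. The medians of the ATPases and the lid were 0.21 and −0.01, and that of the 4 core assembly chaperones was −0.62. The median of the beta subunits was 0.10 with quantile normalization, 0.27 with FPKM as deposited and −0.03 with TPM, and lay above the median of all genes in each. The median of the core assembly chaperones was below 0 and below the median of all genes under each of these scalings. Within the alpha ring, the ATPase ring and the lid, genes were called in opposite directions. No test of a particle as a list was made, since the genes were grouped with results of these data known.

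**Figure D3:**
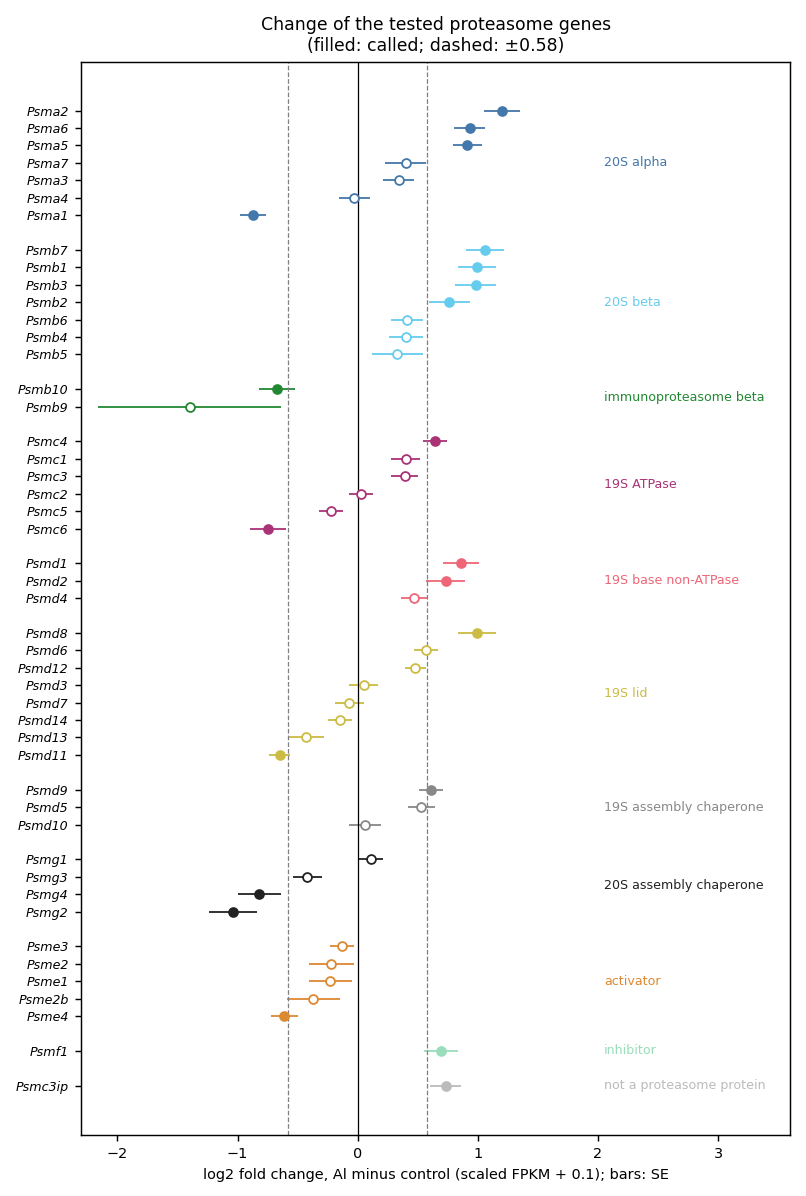
Log2 fold change (Al minus control) of the 47 tested genes on scaled FPKM plus 0.1, grouped by particle; bars are the SE, filled points are called genes and dashed lines mark ±0.58. Psma2 and Psma1 mark the ends of the alpha ring at 1.20 and −0.87, and the beta subunits lie between 0.33 and 1.06.

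Among the alpha subunits, Psma2 had the largest increase of the 47 tested genes by size factors, though not with quantile normalization, where Psmf1 (0.77) and Psmc3ip (0.68) lay above its 0.63, and Psma1 the only decrease called among the constitutive core genes. Psma2 had 59.0, 68.4 and 69.2 scaled FPKM in the control and 180, 153 and 122 in the Al libraries. Psma1 had 44.1, 46.3 and 49.6 scaled FPKM in the control and 24.3, 23.1 and 29.3 in the Al libraries. Neither gene's groups overlapped, and the Al library with the highest Psma2 was not that with the lowest Psma1. The log2 fold change was 1.20 ± 0.15 (SE) for Psma2, with a limma adjusted P of 0.000219, and −0.87 ± 0.11 for Psma1, with an adjusted P of 0.000241. Psma5 and Psma6 also rose, by 0.91 ± 0.12 and 0.93 ± 0.13 on the log2 scale, with adjusted P of 0.000269 and 0.000395. For these 2 the call was lost with FPKM as deposited, TPM and quantile normalization. Psma3 (0.34), Psma7 (0.40) and Psma4 (−0.03) were not called, and Psma7 was called higher at 0.60 without library Al 3. Psma7, the most abundant alpha gene in control cells at 92.1 ± 5.51 FPKM as deposited, had 125, 109 and 78.8 scaled FPKM in the Al libraries. Its 3 control values of 74.8, 81.8 and 76.6 overlapped these through library Al 3. Psma8, the alpha subunit of germ cells, had 1 read in library Al 3 and 0 in the others, where a count of 0 allows up to 3 reads by counting error alone.

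The subunits of the alpha ring, which enter the particle in equal numbers, were less alike in transcript level in the Al libraries. The ratio of Psma2 to Psma1 was 1.34, 1.48 and 1.39 in the control and 7.41, 6.61 and 4.17 in the Al libraries. This pair was chosen after its values had been seen, so its ratio is a description. The SD of log2 FPKM among the 7 alpha genes was 0.81, 0.74 and 0.74 in the control and 1.21, 1.18 and 1.03 in the Al libraries. Among all 31 constitutive subunits of the core, the ATPase ring, the base and the lid, it was 0.75 to 0.79 in the control and 1.03 to 1.18 in the Al libraries. The spread among the beta subunits was 0.47 to 0.52 and 0.59 to 0.69. Such a spread over all tested genes is not given here, so whether the widening is particular to proteasome genes was not tested.

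The promoters of Psma2 and Psma1, and of the lid genes Psmd8 and Psmd11, are shown because these genes of a shared ring or lid were called in opposite directions. The 250 bases before the RefSeq start site in GRCm38.p6 are printed 5′ to 3′ on the strand of the gene. Capitals mark matches to a CCAAT box (CCAAT), an NRF-1 palindrome (GCGCA followed by its reverse complement) or an ETS site (CCGGAAG) on either strand.
Psma2 (chr13:14612992-14613241, plus strand): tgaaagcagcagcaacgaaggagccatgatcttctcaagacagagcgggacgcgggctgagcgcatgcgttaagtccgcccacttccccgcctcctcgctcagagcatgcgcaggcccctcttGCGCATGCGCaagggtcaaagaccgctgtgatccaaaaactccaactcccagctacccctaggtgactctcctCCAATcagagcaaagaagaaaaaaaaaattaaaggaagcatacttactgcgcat
Psma1 (chr7:114276117-114276366, minus strand): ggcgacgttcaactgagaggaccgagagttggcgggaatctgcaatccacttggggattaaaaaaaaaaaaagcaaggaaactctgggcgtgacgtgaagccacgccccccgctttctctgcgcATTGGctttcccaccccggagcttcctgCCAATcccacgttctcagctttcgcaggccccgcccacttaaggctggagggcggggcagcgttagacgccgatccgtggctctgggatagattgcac
Psmd8 (chr7:29180674-29180923, minus strand): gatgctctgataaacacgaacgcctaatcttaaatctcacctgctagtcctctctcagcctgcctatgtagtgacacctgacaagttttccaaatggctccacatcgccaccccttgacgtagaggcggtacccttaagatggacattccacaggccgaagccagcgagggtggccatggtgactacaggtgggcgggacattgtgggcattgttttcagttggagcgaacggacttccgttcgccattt
Psmd11 (chr11:80428365-80428614, plus strand): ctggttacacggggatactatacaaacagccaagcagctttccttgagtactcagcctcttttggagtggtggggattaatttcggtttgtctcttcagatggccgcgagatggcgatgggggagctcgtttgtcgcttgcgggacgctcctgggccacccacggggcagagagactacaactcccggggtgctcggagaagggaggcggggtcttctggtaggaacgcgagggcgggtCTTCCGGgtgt
The Psma2 window held the palindrome of NRF-1, a factor known for nuclear genes of mitochondrial proteins, and a CCAAT box. The Psma1 window held a CCAAT box on each strand, the Psmd11 window an ETS site on the reverse strand, and the Psmd8 window none of the motifs searched. A match is a description of the letters and not a bound site.

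Promoter windows of 300 bases, which add 50 bases after the start site, matched 42 of the 50 genes by symbol. The ETS site stood in 14 of them (33.3%) and in 9.12% of the windows of 27025 genes. None of the 11 windows of tested core genes held it, against 9 of the 14 windows of ATPase, base and lid genes. These 9 were spread over Psmc6 and Psmd11, which were called lower, Psmd2, which was called higher, and genes that were not called. The core of the antioxidant response element (TGACNNNGC or TGAGNNNGC), which NFE2L1 and NRF2 are known to bind, stood in 16 windows (38.1%), against 27.7% of all. It was found in 6 of 11 windows of genes called higher, 3 of 6 of genes called lower and 7 of 23 of genes not called. The CCAAT box stood in 15 windows (35.7%, against 37.9% of all), the E-box CACGTG in 4 (9.52%, against 7.24%) and the NRF-1 palindrome in Psma2 and Psmg1 (4.76%, against 0.977%).

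Among the constitutive beta subunits, Psmb4 had the highest level in control cells, 243 ± 21 FPKM as deposited, and Psmb5 the lowest, 86.1 ± 10.3. Psmb7, the subunit with trypsin-like activity, had 86.3, 105 and 110 scaled FPKM in the control and 239, 226 and 168 in the Al libraries. It was the beta subunit with the largest increase, 1.06 ± 0.16, with a limma adjusted P of 0.000628. Psmb1, Psmb3 and Psmb2, which have no catalytic activity, rose by 0.99 ± 0.16, 0.98 ± 0.17 and 0.76 ± 0.17, with adjusted P of 0.000776, 0.00125 and 0.00493. The calls of all 4 were lost with FPKM as deposited, TPM and quantile normalization, and Psmb2 was at −0.03 by TPM and at 0.44, without a call, when scaled on the proteasome genes. Psmb4, Psmb6 and Psmb5 had 0.40, 0.41 and 0.33 and were not called. Psmb5, the subunit with chymotrypsin-like activity and the target of bortezomib, had 63.3, 73.6 and 81.2 scaled FPKM in the control and 110, 108 and 64.1 in the Al libraries. The low value of Al 3 lay inside the control range, and without that library Psmb5 was called at 0.60. The fold changes of Psmb4, Psmb5 and Psmb6 were below 0 with FPKM as deposited, TPM and quantile normalization. The ratio of Psmb7 to Psmb5 was 1.36, 1.43 and 1.36 in the control and 2.17, 2.11 and 2.63 in the Al libraries. The ratio of Psmb1 to Psmb4 was 0.712, 0.698 and 0.746 in the control and 1.20, 1.08 and 0.982 in the Al libraries. Both pairs were chosen after their values had been seen.

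The inducible subunits were scarce. Psmb10, the counterpart of Psmb7, had 6.18, 5.99 and 5.70 scaled FPKM in the control and 3.93, 4.21 and 3.05 in the Al libraries, from 106 to 554 reads. It fell by 0.67 on the log2 scale (SE 0.15), with an adjusted P of 0.0042, and was at −0.53 without library Al 3, −0.40 with quantile normalization and −0.56 with a pseudocount of 1, in each case without a call. Psmb9, the counterpart of Psmb6, had 104, 87 and 54 reads in the control and 30, 18 and 1 in the Al libraries. Its log2 fold change of −1.40 ± 0.76 was not called, with an adjusted P of 0.137, and was −0.37 without library Al 3, which held 1 read. Psmb9 was called lower in 4 of the 17 settings, with FPKM as deposited (−1.83), TPM (−2.10), the replicate block and without Al replicate 1 (−2.03), and also when scaled on the proteasome genes (−1.70). Psmb8, the counterpart of Psmb5, had 1 read in library Al 3 and 0 in the other 5 libraries, and Psmb11, the thymus subunit, had 0 to 7 reads in each library. The log2 ratio of Psmb10 to Psmb7 was −4.05 ± 0.24 in control and −5.78 ± 0.09 in Al libraries (n = 3 each), a difference of −1.72 with an exact permutation P of 0.1, the smallest that 3 against 3 allows. For Psmb9 to Psmb6 the difference was −1.75, with an exact permutation P of 0.2. It was −0.84 without Al replicate 3, −2.27 without Al replicate 1, −0.77 with a pseudocount of 1 and −2.34 without a pseudocount. Adjusted over the 4 ratios computed, both exact P values were 0.4. The ratio of Psmb8 to Psmb5 was not computed, since Psmb8 was at the limit of detection.

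Interferon induces the immunoproteasome together with other genes of antigen processing, and 8 of 10 such genes were tested. The peptide transporter genes Tap1 (−1.29) and Tap2 (−0.73) were called lower. B2m (1.22) and H2-D1 (1.17), which encode parts of the MHC class I molecule, were called higher. The median of the 8 was −0.06. With TPM, B2m and H2-D1 were at 0.43 and 0.39 without a call, and Tap1 and Tap2 at −2.05 and −1.51.

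In the ATPase ring, Psmc4 and Psmc6 were called in opposite directions. Psmc4 had 54.9, 51.3 and 59.5 scaled FPKM in the control and 83.9, 87.1 and 86.7 in the Al libraries. Psmc6 had 27.7, 36.7 and 34.2 in the control and 16.5, 18.9 and 23.2 in the Al libraries. Neither gene's groups overlapped. The log2 fold change was 0.64 ± 0.10 for Psmc4 and −0.75 ± 0.15 for Psmc6, with limma adjusted P of 0.000584 and 0.00259. The call of Psmc4 was lost under each of the other scalings and without control replicate 2, and its fold change was −0.15 by TPM. Psmc3, the most abundant ATPase in control cells at 88.2 ± 3.6 FPKM as deposited, had 0.39, and the other 3 lay between −0.22 and 0.40 without a call. The ratio of Psmc4 to Psmc6, a pair chosen after its values had been seen, was 1.98, 1.40 and 1.74 in the control and 5.09, 4.60 and 3.74 in the Al libraries. The SD of log2 FPKM among the 6 ATPases was 0.36 to 0.45 in the control and 0.76 to 0.95 in the Al libraries.

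**Figure D4:**
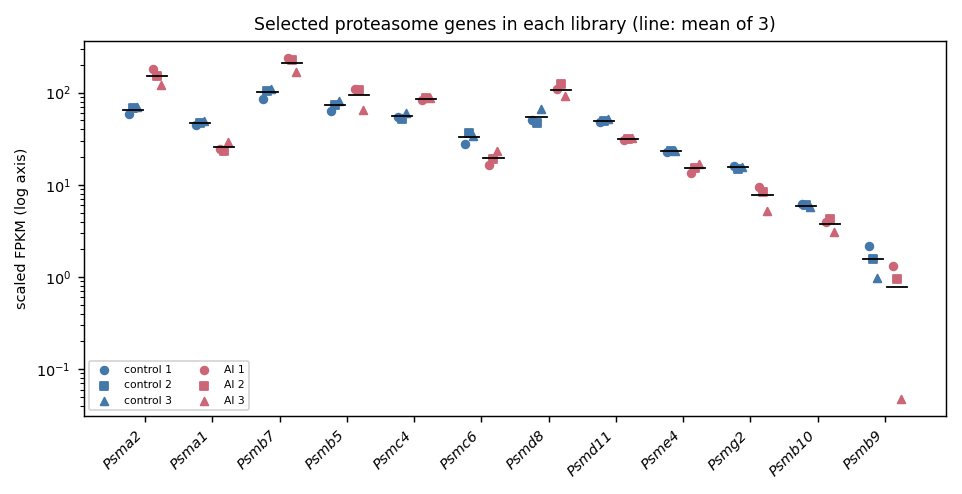
Scaled FPKM (log axis) of 12 proteasome genes in each of the 3 control (blue) and 3 Al (red) libraries; lines are means of 3 and marker shapes give the replicate number. The groups do not overlap for 10 of the genes, whereas Psmb5 and Psmb9 overlap, with Psmb9 at 0.0481 in library Al 3.

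The large base subunits Psmd1 and Psmd2, the scaffold on which substrates and ubiquitin receptors dock, rose in the Al group. Psmd1 had 60.1, 61.7 and 65.6 scaled FPKM in the control and 134, 120 and 90.2 in the Al libraries, a log2 fold change of 0.86 ± 0.15 with an adjusted P of 0.00117. Psmd2 had 118, 119 and 130 in the control and 233, 227 and 159 in the Al libraries, a log2 fold change of 0.73 ± 0.16 with an adjusted P of 0.00403. Library Al 3 was the lowest of its group for both and still lay above the controls. Their calls were lost with FPKM as deposited, TPM and quantile normalization and when scaled on the proteasome genes, where they were at 0.54 and 0.41. The ubiquitin receptor Psmd4 was not called at 0.47 ± 0.11.

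Of the 8 lid subunits, Psmd8 was called higher and Psmd11 lower. Psmd8 had 50.1, 47.1 and 66.2 scaled FPKM in the control and 109, 123 and 91.7 in the Al libraries. Psmd11, a scaffold subunit of the lid, had 47.5, 49.2 and 51.9 in the control and 30.4, 31.6 and 32.4 in the Al libraries. The groups of neither gene overlapped, and the 3 Al libraries differed little for Psmd11. The log2 fold change was 0.99 ± 0.16 for Psmd8, with an adjusted P of 0.000764, and −0.65 ± 0.09 for Psmd11, with an adjusted P of 0.000311. The call of Psmd8 was lost with FPKM as deposited, TPM and quantile normalization. The ratio of Psmd8 to Psmd11, chosen after its values had been seen, was 1.06, 0.958 and 1.28 in the control and 3.59, 3.91 and 2.83 in the Al libraries. Psmd14, the deubiquitinase of the lid and its least abundant gene in control cells, was at −0.15 ± 0.10 with overlapping groups. Psmd3, the most abundant lid gene at 117 ± 6.23 FPKM as deposited, was at 0.05 ± 0.12, also with overlap.

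The chaperones of the core and of the base differed. The PAC2 gene Psmg2 had 16.0, 14.7 and 15.7 scaled FPKM in the control and 9.48, 8.36 and 5.25 in the Al libraries. It fell by 1.04 on the log2 scale (SE 0.20), with an adjusted P of 0.00193, the largest decrease among the called genes by size factors. With quantile normalization, Psma1 (−1.15) lay below the −1.03 of Psmg2. Without library Al 3, Psma1 (−0.96) and Psmc6 (−0.87) lay below its −0.78. Psmg4 had 21.6, 19.2 and 24.2 in the control and 12.9, 15.1 and 9.29 in the Al libraries, a log2 fold change of −0.82 ± 0.18 with an adjusted P of 0.00345. Psmg3 was at −0.42 ± 0.12 without a call, though its groups did not overlap, and Psmg1 was at 0.11 ± 0.10. Of the 3 chaperones of the base, Psmd9 was called higher at 0.61 ± 0.10 with an adjusted P of 0.000862. That call was lost in 6 of the 17 settings, among them pseudocount 1 and the fits without control replicate 1 or Al replicate 1. Psmd5 (0.53) and Psmd10 (0.06) were not called.

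Among the activators, Psme4, the gene of PA200, fell. It had 22.9, 23.4 and 23.0 scaled FPKM in the control and 13.3, 15.2 and 17.0 in the Al libraries, a log2 fold change of −0.61 ± 0.11 with an adjusted P of 0.00131. Without Al replicate 1 it was at −0.52 and not called. The 11S genes Psme1, Psme2 and Psme3 were at −0.23 ± 0.18, −0.22 ± 0.19 and −0.13 ± 0.10 with overlapping groups, and Psme2b, a near copy of Psme2, at −0.37 ± 0.22. With FPKM as deposited or TPM, all 5 were called lower, where 42.0% and 53.1% of all tested genes were called lower. The log2 ratios of Psme1 and Psme2 to Psme3 differed by −0.10 and −0.09 between the groups, with exact permutation P of 0.9 and 0.8. The inhibitor gene Psmf1 had 7.55, 7.51 and 7.31 scaled FPKM in the control and 12.3, 14.2 and 10.1 in the Al libraries, and was called higher at 0.69 ± 0.14 with an adjusted P of 0.00216. Psmc3ip, which matches the symbols but encodes a cofactor of meiotic recombination, was called higher at 0.73 ± 0.13. The calls of both were lost with FPKM as deposited (0.21 and 0.25), TPM (−0.09 and −0.05) and scaling on the proteasome genes (0.38 and 0.42).

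Across the 47 genes, those with more RNA in control cells tended to have the higher fold changes by size factors. The relation was not computed with quantile normalization. There, the abundant Psmb4 and Psmd3 were at −0.30 and −0.54, and the scarce Psmf1 and Psmd9 at 0.77 and 0.50. The scarce Psmb9 and Psmg2 stayed low, at −1.24 and −1.03. Spearman's rho between the control FPKM and the log2 fold change was 0.51 and Pearson's r on log2 FPKM 0.53, and without Psmb9 they were 0.48 and 0.43. Over all tested genes the values were −0.01 and −0.09. The points share the same 6 libraries, and the control values enter both measures, so no P is given. Transcript GC content and length had rho of −0.10 and −0.08 with the fold change. Over the 31 constitutive subunits, rho was 0.49 for control level, −0.39 for length and 0.08 for GC content. Of the genes called lower, Psmg2, Psmg4, Psme4 and Psmb10 had 7.06 to 27.3 FPKM as deposited in control cells. Psmc6 had 38.9, and Psma1 and Psmd11 had 55.3 and 58.6.

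**Figure D5:**
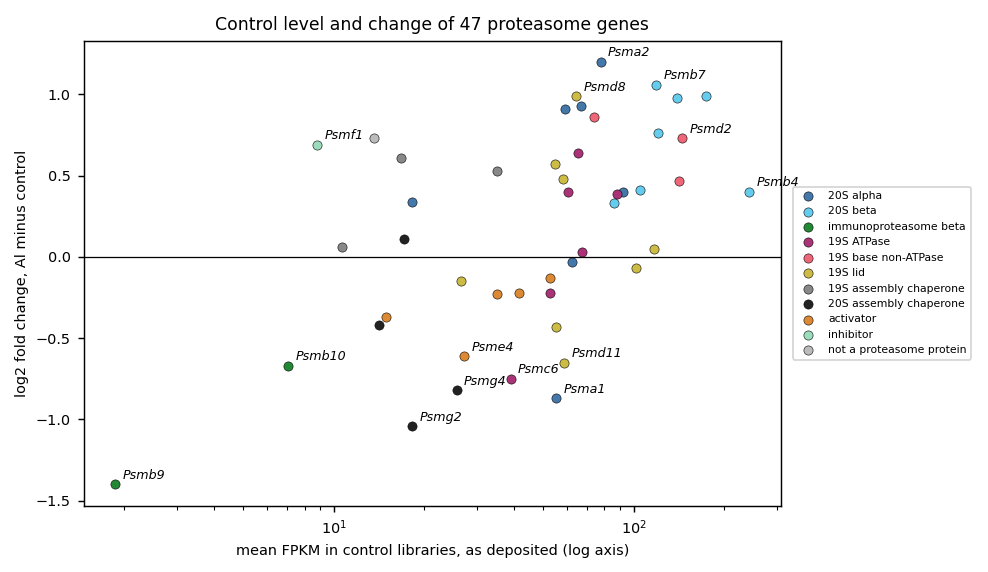
Mean FPKM as deposited in the control libraries (log axis) against the log2 fold change, Al minus control, for the 47 tested genes, coloured by particle. The beta subunits lie between 0.33 and 1.06, and the called decreases are found between 7.06 FPKM (Psmb10) and 58.6 FPKM (Psmd11).

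Reads of near-identical sequences limit some of these values. For 13 of the 50 genes, another transcript matched at 95% identity or more over 300 bases, and how the counting treated such reads is not given in the sources used here. Among them were Psma2 and Psma5, Psmb3 and Psmb5, Psmd2 and Psmd11, all with copies that have no row of their own in the table used here. For Psmc3ip and Psmd13 the match was to the neighbouring genes Mlx and Sirt3. Psma1, Psmb7, Psmc4, Psmc6, Psmd8, Psmg2 and Psmg4 had no such copy.

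The genes named lie on many chromosomes. In GENCODE M21 on GRCm38, Psma2 spans chromosome 13 from 14613240 to 14674236, Psma1 chromosome 7 from 114264606 to 114276118, Psmd8 chromosome 7 from 29174188 to 29180701 and Psmd11 chromosome 11 from 80428615 to 80473248. Psmb8 and Psmb9 are neighbours on chromosome 17, from 34197721 to 34201454 and from 34181987 to 34187764.

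Proteasome genes with other symbols were counted as a list of 27, of which 11 (40.7%) were called higher and 3 (11.1%) lower, against 26.2% and 24.4% of all tested genes, with a median log2 fold change of 0.45. In the list, 6 (22.2%) were higher and 7 (25.9%) lower with FPKM as deposited, where 14.0% and 42.0% of all genes were called. With TPM, 3 (11.1%) and 10 (37.0%) were called, against 9.31% and 53.1% of all genes. Quantile normalization gave 3 (11.1%) and 4 (14.8%), against 22.2% and 24.2% of all genes. Scaling on the proteasome genes gave 6 (22.2%) and 4 (14.8%), against 17.6% and 35.4% of all genes. Rps27a, which encodes ubiquitin fused to a ribosomal protein, was called higher at 1.61, and the polyubiquitin gene Ubb at 0.66. With FPKM as deposited they were at 1.12 and 0.18, with TPM at 0.82 and −0.12, and with quantile normalization at 0.45 and −0.08, so that Ubb turned direction. Pomp, the chaperone that matures the core, had 74.9, 84.7 and 83.5 FPKM as deposited in the control and 146, 138 and 100 in the Al libraries, a log2 fold change of 1.13 ± 0.19 after scaling. It was at 0.34 with TPM and 0.54 with quantile normalization, without a call. By size factors, Pomp was thus called higher and the chaperones Psmg2 and Psmg4 lower. Usp14, the deubiquitinase that docks on Psmd2, had 57.5, 62.7 and 69.5 FPKM as deposited in the control and 21.8, 20.7 and 26.9 in the Al libraries, and fell by 0.97 after scaling. Of the genes that make and activate NFE2L1, the factor known to raise proteasome transcription when the protease is impaired, the peptide N-glycanase gene Ngly1 fell by 2.84, from 4.51 ± 1.16 to 0.377 ± 0.126 FPKM as deposited. Nfe2l1 itself was at −0.50 and not called, though it was called lower with TPM (−1.29), quantile normalization (−1.02) and FPKM as deposited (−0.99), with 109 ± 4.80 and 55.2 ± 5.48 FPKM as deposited, Ddi2 at 0.38 and Syvn1 at 0.05. Among the shuttles that bring ubiquitin-tagged proteins to the proteasome, Ubqln2 (1.36) and Ubqln1 (0.81) rose, while Rad23b (0.46) and the unfoldase Vcp (0.45) were not called. The call of Ubqln1 was lost under each other scaling and that of Ubqln2 with TPM (0.57). Zfand2a, a stress-induced factor of the 19S cap, rose by 1.56 and was called higher under each scaling. Uchl5, Txnl1 and Shfm1 were called higher at 0.75, 0.70 and 0.87, but were at 0.27, 0.21 and 0.39 with FPKM as deposited and −0.03, −0.09 and 0.09 with TPM, without a call.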

How the data were processed

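RNA was measured in 6 input libraries, 3 of control and 3 of Al-treated HT22 cells. Per the study's methods, the authors used Trimmomatic for trimming, SortMeRNA to filter ribosomal RNA and HISAT2 for alignment to GRCm38/mm10. The submitters' processing notes name fastp, HISAT2, HTSeq and GRCm39 instead, so the build was not settled. The deposited values are FPKM per gene symbol and library. HTSeq is a read counter, but the notes give no roles, and the annotation, and whether a read pair counted once, are not given in the sources used here. The authors called differential genes with DESeq2, which was not run here. For 17687 of 17688 genes above 0, FPKM were whole multiples of 1 read within a set tolerance, which gave reads, lengths and library totals. The tolerance was 1e-06, and wider for genes with many reads. The table covered at least 99.4% of the library totals. In simulated data, exact reads were recovered for 96.1% of genes.

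FPKM were divided by median-of-ratios size factors (genes with a mean of at least 1) and tested as log2(value + 0.1) with limma 3.58.1 (lmFit, eBayes with trend) in R 4.3.3, for the 12889 genes whose FPKM averaged 0.1 or more. Fold changes are on that scale, which understates low genes. P values were adjusted by Benjamini-Hochberg over all tested genes. Ratios were of FPKM + 0.1 and tested with a two-sided exact permutation test. The genes and lists were chosen with earlier results of these data known. Values were given for the called genes, the catalytic subunits, the activators, and the extremes of fold change and control level of each particle. The fit was tested on simulated data. Copies were found with minimap2 2.31, coordinates came from GENCODE M21 and promoters from RefSeq on GRCm38.p6. The immunoprecipitated libraries were not analysed here. Some genes of these lists are not reported here by name.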

Additional observations from a re-analysis of the deposited data

How the results depend on the processing

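The scaling between libraries decided most counts. With FPKM as deposited, 1 gene was called higher and 16 lower, on the TPM scale 0 and 22, after quantile normalization 3 and 8, and when scaled on the proteasome genes, added after the data had been seen, 7 and 11. At an adjusted P under 0.05 with any fold change, 23 were higher and 9 lower, without a share over all genes to set beside them. The median log2 fold change of 0.34 became −0.14 on deposited FPKM, −0.44 on TPM and −0.17 after quantile normalization. Over all tested genes, 3375 were higher and 3143 lower, against 1805 and 5417 with FPKM as deposited and 1200 and 6843 with TPM, 2859 and 3115 after quantile normalization and 2269 and 4557 when scaled on the proteasome genes. By construction, these scalings move every gene of a library by the same factor, quantile normalization excepted. Leaving out 1 library gave 13 to 17 genes higher, 6 to 8 lower and a median of 0.23 to 0.48, the largest without Al replicate 3. The log2 ratio of Psme1 to Psme3 ranged from −0.36 to 0.09 and that of Psme2 to Psme3 from −0.26 to 0.11 when 1 library was left out, positive without Al replicate 3 for both and, at 0.02, without control replicate 2 for the latter.

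Of 663 alternative values for 39 genes, 553 kept their direction and side of the threshold, 23 gained a call without a change of sign and 40 changed sign. Some of these 40 also gained a call, as for Psmd10, Psmd3 and Psmg1, which were called lower with TPM. A call was lost in 53, some of them with a change of sign. The sign changed with FPKM as deposited for Psma3 (−0.14), Psma7 (−0.086), Psmb4 (−0.09), Psmb5 (−0.15), Psmb6 (−0.078), Psmc3 (−0.094), Psmd10 (−0.42), Psmd3 (−0.44), Psmd4 (−0.015) and Psmg1 (−0.38). With TPM it changed for Psma3 (−0.44), Psma7 (−0.39), Psmb2 (−0.029), Psmb4 (−0.39), Psmb5 (−0.45), Psmb6 (−0.38), Psmc3 (−0.39), Psmc3ip (−0.048), Psmc4 (−0.15), Psmd10 (−0.72), Psmd2 (−0.053), Psmd3 (−0.74), Psmd4 (−0.31), Psmd5 (−0.25), Psmd9 (−0.18), Psmf1 (−0.088) and Psmg1 (−0.67). With quantile normalization it changed for Psma7 (−0.14), Psmb4 (−0.3), Psmb5 (−0.2), Psmb6 (−0.17), Psmc3 (−0.13), Psmd3 (−0.54) and Psmd4 (−0.19). When scaled on the proteasome genes, it changed for Psmd10 (−0.26), Psmd3 (−0.27) and Psmg1 (−0.21). When 1 library was left out, Psmd10 ranged from −0.068 (without control replicate 1) to 0.12, and Psmd3 from −0.02 (without control replicate 2; −0.012 without Al replicate 1) to 0.14. Pseudocounts of 1 and 0.01, filters, the fit without trend and limma voom on the recovered reads left the counts within 1.5 times.

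Same-numbered control and Al libraries had correlations of −0.0766, −0.0599 and −0.112 in their deviations, so the replicate numbers were not taken as pairs. With the replicate block, 14 genes were higher and 8 lower, Psmb9 being added. Depth limits Psmb8, Psmb9, Psmb11 and Psma8, and a count of 0 allows up to 3 reads. The ratio of Psmb8 to Psmb5 was not run.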
